A study of Sus scrofa with 20 samples.

Results

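miR-21 was measured in small RNA libraries of pig peripheral blood mononuclear cells (PBMCs), the white cells with a single round nucleus, chiefly lymphocytes and monocytes. It was followed through 3 entries, taken by name from the deposited count tables: hsa-miR-21-5p and hsa-miR-21-3p in the human-reference table, which lists 608 miRNAs, and ssc-miR-21 in the pig-reference table, which lists 284. The members are thus 3 of 892 entries, read in all 20 libraries. The ICH group held 10 libraries of cells collected 6 h after intracerebral hemorrhage (ICH), modelled by injecting the pig's own blood, at a controlled pressure, through a catheter placed in the white matter of the frontal lobe. The Control group held 10 libraries of cells collected before the injection. All samples came from female American Yorkshire pigs aged 80 to 90 days, with no genetic alteration named in the labels. The replicate numbers 1 to 10 occurred in both groups and paired an ICH with a Control library. No sham-operated pigs were analysed here, so anaesthesia, surgery and elapsed time cannot be told apart from the hemorrhage.

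A miRNA gene is transcribed as a longer RNA that folds into a hairpin, and the enzymes Drosha and Dicer cut this to a short duplex. One strand, the guide, is loaded into an Argonaute protein and represses mRNAs that pair with its seed, bases 2 to 8, while the other strand, the passenger, is usually degraded. For miR-21 the 5p arm is the guide and the 3p arm the passenger. miR-21 is induced in activated myeloid cells and lymphocytes, among others by the transcription factors AP-1 and STAT3, and in macrophages it represses PDCD4, a promoter of inflammatory signalling.

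The 3 entries rest on 2 sets of reads. ssc-miR-21 carries no arm suffix, and its count was 2 to 17 reads below that of hsa-miR-21-5p in every library, with counts of 85214 to 400268, so both count the guide arm and are not independent of each other. hsa-miR-21-3p alone reports the passenger arm, and it was counted against the human sequence. Whether the pig passenger strand matches that sequence base for base was not tested, so its level is a level of reads accepted by the human reference. The pig gene, MIR21, spans 92 bases on chromosome 12 from 36065267 to 36065358 (Sscrofa11.1, RefSeq gene table). It lies inside no other gene of that table, 132 kb from PTRH2 on one side and 14.6 kb from TUBD1 on the other.

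The human-reference totals were 919313 to 2177834 reads per library, and the pig-reference totals were 896960 to 2103685. Reads of miR-142, miR-150 and miR-223, miRNAs of blood leukocytes, were present in all 20 libraries, and together they took 19229 to 37356 counts per 1000000 reads of the library (CPM) in ICH and 21604 to 45001 in Control. Muscle miR-1-3p and liver miR-122-5p were detected at low levels. miR-1-3p had 5.44, 8.78 and 58.2 CPM (lowest, median, highest) in ICH and 1.97, 5.51 and 9.25 in Control. In CPM it was higher in ICH in 10 of 10 pairs, and in raw reads in 9. It was too scarce to be tested, and 3.67% of the 245 miRNAs tested below were higher in all 10 pairs. miR-122-5p averaged 9.90 ± 7.86 CPM in ICH and 5.03 ± 3.72 in Control (SD, n = 10 each). Of 2 further muscle miRNAs, miR-133a-3p had at most 1 read in a library and was seen in 2 of 20 libraries. The other, miR-206, had no reads in either table.

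The guide arm was among the most heavily sequenced miRNAs at both times. hsa-miR-21-5p took 12.6%, 17.6% and 20.8% of human-reference reads in ICH (lowest, median, highest) and 7.11%, 12.7% and 16.6% in Control. The groups overlapped, but 8 of 10 ICH libraries lay above the highest Control library, and 5 of 10 Control libraries lay below the lowest ICH library. Replicate number 1 gave the lowest value in each group. At these depths the 95% Wilson interval of a share was at most 0.152 percentage points wide, so counting error, the only error it covers, was small against the spread between libraries.

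The mean share was 17.5% ± 2.35 in ICH and 12.8% ± 2.88 in Control (SD, n = 10 each). The means differed by 4.67 percentage points (two-sided permutation test of the difference of means, p = 0.001). Within replicate numbers an exact two-sided sign-flip test gave p = 0.00586. The share was higher in ICH in 9 of 10 pairs. The ratio of ICH to Control was 1.78 in number 1, 1.77 in number 4, 1.63 in number 3 and 1.54 in number 10. It was 1.07 in number 8 and 0.893 in number 5, the one pair with the lower share in ICH, whose Control library had the highest Control share.

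**Figure D1:**
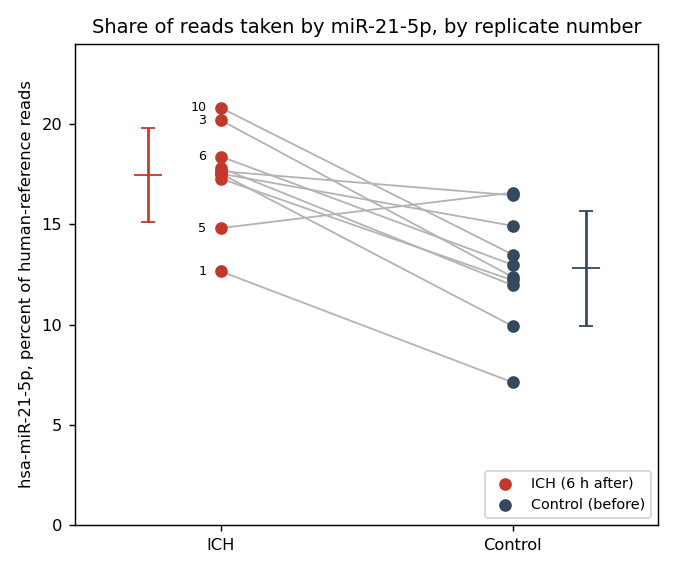
Share of human-reference reads taken by hsa-miR-21-5p (y axis, percent) in the 10 ICH and 10 Control libraries. Grey lines join the libraries of one replicate number, the numbers beside the ICH points give it where points do not crowd, and the outer marks are the mean and SD (17.5% ± 2.35 in ICH, 12.8% ± 2.88 in Control). Of the 10 lines, 9 are higher on the ICH side, and only number 5 is lower there.

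The order of the most abundant miRNAs differed between the groups. hsa-miR-21-5p was the most abundant miRNA in 6 of 10 ICH libraries and in 3 of 10 Control libraries, and never ranked below 3 in ICH or below 4 in Control. Over all 20 libraries it ranked 2 of 608, behind let-7f-5p. The let-7 miRNAs are a large family linked to differentiated cells, and let-7f-5p took 15.6% ± 2.64 of reads in ICH and 16.05% ± 2.85 in Control. miR-21-5p averaged 1.16 ± 0.312 reads per let-7f-5p read in ICH and 0.829 ± 0.274 in Control, and this ratio was higher in ICH in 8 of 10 pairs. Against let-7g-5p it averaged 1.37 ± 0.260 in ICH and 0.955 ± 0.301 in Control.

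The comparison with the next most abundant miRNAs went the same way. miR-21-5p averaged 2.81 ± 0.579 reads per read of miR-26a-5p in ICH and 1.79 ± 0.512 in Control. Against miR-191-5p, which is found across blood cells, it averaged 4.05 ± 0.714 in ICH and 2.82 ± 0.849 in Control, and against let-7a-5p 3.40 ± 0.804 in ICH and 2.53 ± 1.14 in Control. Each of these 3 ratios was higher in ICH in at least 8 of 10 pairs. None of these 5 abundant miRNAs passed the test of its own change with the replicate number as a block, with log2 fold changes of -0.11 to 0.07.

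The guide arm rose after ICH. With counts scaled by TMM (trimmed mean of M values, which sets library sizes so that most miRNAs keep their level) and again given as CPM, hsa-miR-21-5p averaged 182256 ± 30440 CPM in ICH and 122914 ± 25893 CPM in Control (SD, n = 10 each). Its log2 fold change was 0.57 ± 0.13 (SE), or 1.48-fold (edgeR quasi-likelihood test, Benjamini-Hochberg adjusted p = 0.0235 over 245 miRNAs). With the replicate number as a block it was 0.58 ± 0.093 (edgeR, adjusted p = 0.000153), and hsa-miR-21-5p was higher in 10 of 10 pairs on this scale. In number 5, whose share was lower in ICH, the scaled values were nearly equal, at 161073 CPM in ICH and 158826 in Control. Of the 245 miRNAs tested, 2.86% rose and 0.816% fell without the block, and 13.1% rose and 6.12% fell with it. A further count, of miRNAs higher in ICH in all 10 pairs, came to 3.67%. Among the 245 it ranked 1 by p without the block and 3 with it, and 14 by the size of its rise in both fits. Without the block the call was lost when replicate numbers 2, 3, 8 or 10 were left out (edgeR, adjusted p of 0.0564 to 0.0656), and with the block it held without any one number (adjusted p of 3.41e-05 to 0.00321).

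ssc-miR-21 averaged 183399 ± 28959 CPM in ICH and 129940 ± 29654 CPM in Control (SD, n = 10 each). The log2 fold change was 0.50 ± 0.13 and just missed the threshold without the block (edgeR, adjusted p = 0.0505 over 179 miRNAs), while with the block it was 0.52 ± 0.095, or 1.43-fold (adjusted p = 0.00229). Without the block edgeR called 0% of the pig-reference miRNAs, where 35 had an unadjusted p under 0.05 and DESeq2 called 11 and limma voom 3. With the block 11.7% rose and 10.1% fell. ssc-miR-21 was higher in ICH in 9 of 10 pairs, again with number 5 as the exception, beside 11.2% of miRNAs higher in at least 9 pairs and 3.35% in all 10.

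**Figure D2:**
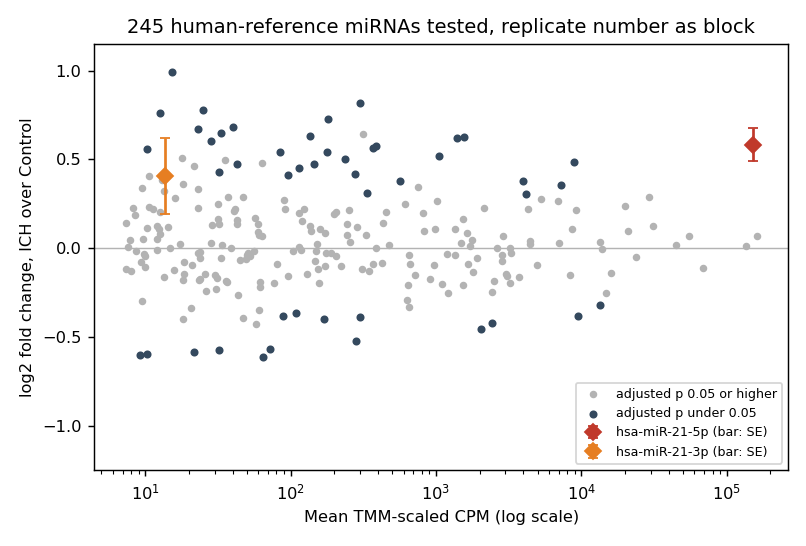
log2 fold change of ICH over Control (y axis) against mean TMM-scaled CPM (x axis, log scale) for 245 human-reference miRNAs, from the fit that has the replicate number as a block. hsa-miR-21-5p, at 0.58 ± 0.093 (SE), stands at the far right among the called miRNAs, and hsa-miR-21-3p, at 0.40 ± 0.21, stands at the far left among those that did not pass.

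Of 16 human-reference miRNAs averaging at least 10000 CPM, 2 passed the test with the block, beside 19.2% of all 245: miR-21-5p rose, and miR-181a-5p, a miRNA of lymphocyte development, fell by 0.32 on the log2 scale (± 0.083 SE, edgeR, adjusted p = 0.00856). let-7i-5p had the next highest value at 0.29 ± 0.11 (adjusted p = 0.0589), followed by miR-99a-5p at 0.23 ± 0.087 with the same adjusted p, and neither passed. In the pig-reference counts 3 of 15 such miRNAs passed with the block, beside 21.8% of all 179. ssc-miR-21 rose, ssc-miR-181a fell by 0.39 (± 0.080, adjusted p = 0.00245) and ssc-miR-142-5p, of a hairpin specific to blood cells, fell by 0.32 (± 0.10, adjusted p = 0.0264).

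The size of the fold depended on how libraries were scaled. Without the block the log2 fold change of hsa-miR-21-5p was 0.45 with library totals, 0.45 with upper-quartile factors, 0.53 with DESeq2's size factors and 0.53 with TMM factors from libraries stripped of miR-21 reads. The median over all 245 miRNAs shifted with the scaling, by -0.11 with library totals and by -0.12 with upper-quartile factors relative to TMM, and the median over the 179 pig-reference miRNAs by 0.11 with upper-quartile factors. A change of scaling moves all miRNAs of a library alike, so the distance to that median was bound to stay nearly the same. Its steadiness is therefore no test of the rise. hsa-miR-21-5p stood 0.53 above the median with TMM, 0.52 with library totals, 0.53 with upper-quartile factors and 0.53 with DESeq2's size factors. ssc-miR-21 was 0.53 above the median of its own table with TMM, 0.53 with library totals and 0.55 with upper-quartile factors. The nearly identical reads of the guide arm thus gave 1.48-fold in one table and 1.41-fold in the other under TMM, while library totals gave 0.45 and 0.44 on the log2 scale.

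**Figure D3:**
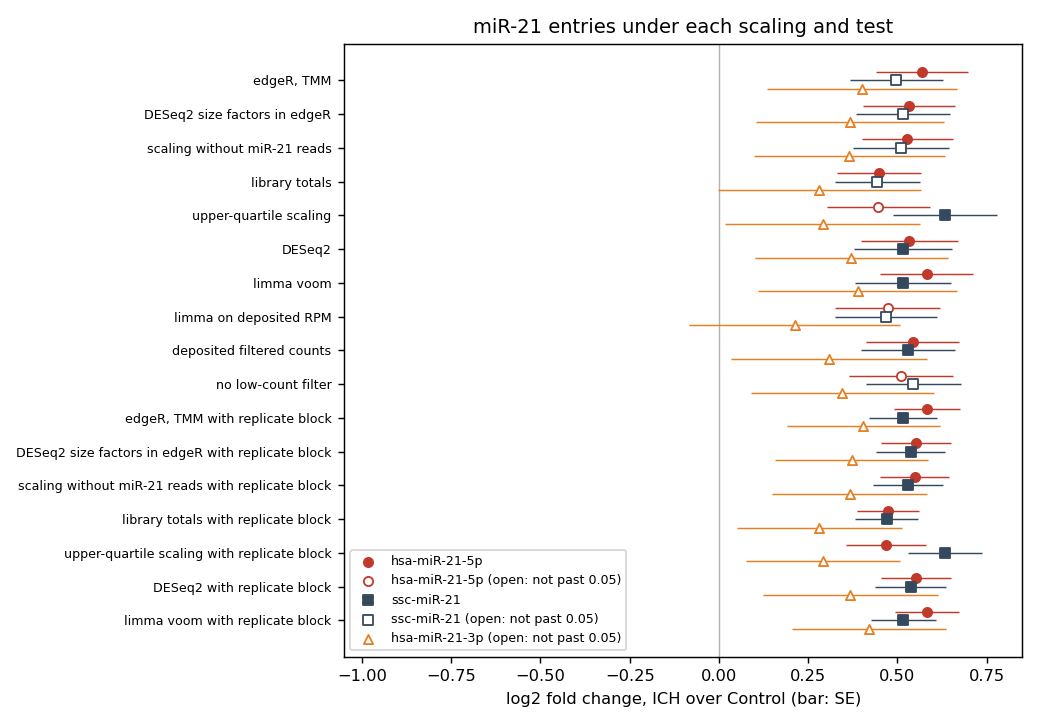
log2 fold change of ICH over Control (x axis, bars are SE) of hsa-miR-21-5p, ssc-miR-21 and hsa-miR-21-3p under 17 combinations of scaling, test and block (y axis), with filled marks for an adjusted p under 0.05. Every value lies above 0. The guide arm spans 0.44 to 0.63 over both tables, and the passenger arm, open throughout, spans 0.21 to 0.42.

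The passenger arm was scarce. hsa-miR-21-3p had 10, 18 and 37 reads in ICH (lowest, median, highest) and 4, 17 and 31 reads in Control. Scaled by the human-reference total this was 6.50, 12.1 and 30.0 CPM in ICH and 3.34, 11.5 and 22.5 in Control. The groups overlapped over most of their range: 2 ICH libraries lay above the highest Control library and 1 Control library below the lowest ICH library. The exact 95% Poisson interval, which covers counting error only, ran from 21.05 to 41.6 CPM in ICH number 3, the highest library, and from 0.910 to 8.55 in Control number 1, the lowest.

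hsa-miR-21-3p did not pass the test. It averaged 15.7 ± 7.02 CPM in ICH and 11.9 ± 4.68 CPM in Control (SD, n = 10 each, TMM-scaled). The log2 fold change was 0.40 ± 0.27 (edgeR, adjusted p = 0.439), and with the block 0.40 ± 0.21 (adjusted p = 0.210). It was higher in ICH in 7 of 10 pairs and lower in numbers 4, 7 and 8. In number 1 the ratio of ICH to Control was 3.26, from 10 and 4 reads, and in number 8 it was 0.481, from 12 and 22 reads. Its direction was positive under all 37 alternative settings, and it passed under none.

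**Figure D4:**
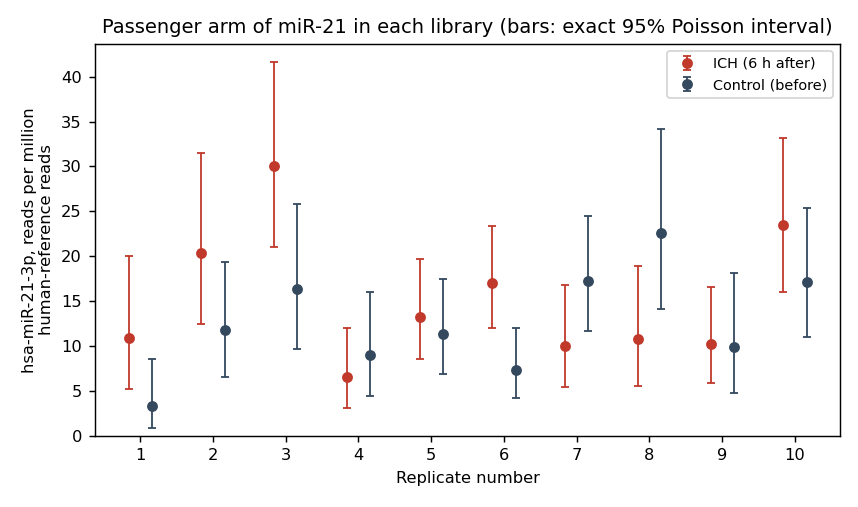
hsa-miR-21-3p in CPM of the human-reference total (y axis) for each replicate number (x axis), with the ICH library left of the Control library; bars are exact 95% Poisson intervals. Values run from 6.50 to 30.0 in ICH and from 3.34 to 22.5 in Control, and the intervals of the libraries of one number overlap in 9 of 10 numbers, with number 6 just apart.

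Set against each other, the arms were far apart in level. Over all libraries there were 4280141 reads of the 5p arm and 382 of the 3p arm, or 11205 guide reads per passenger read. Per 1000000 guide reads there were 85.5 passenger reads in ICH, with a 95% Poisson interval of 74.4 to 97.9 that rests on 211 reads. In Control there were 94.3, with an interval of 80.7 to 109.5 that rests on 171 reads. Of 54 human-reference hairpins with both arms at a mean of at least 10 CPM, miR-21 ranked 1 by imbalance, with a mean log2 ratio of 3p to 5p of -13.40. The next was let-7i at -11.23, followed by miR-30d at -9.63 and miR-26b at -9.02, each also dominated by the 5p arm. The 10 CPM minimum sets a floor on the scarce arm, so hairpins whose passenger was scarcer are outside this ranking. Among the other ranked hairpins the most abundant arm was that of let-7a, at 53887 CPM against 151322 for miR-21-5p. With a scarce arm of 10 CPM, none of them could have reached the imbalance of miR-21. The ranking is therefore no test of how unusual miR-21 is.

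**Figure D5:**
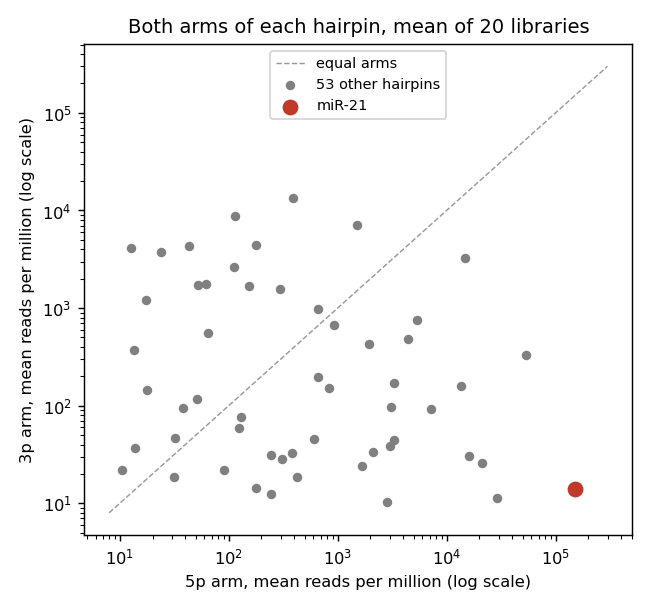
Mean CPM of the 3p arm (y axis, log scale) against the 5p arm (x axis, log scale) for 54 hairpins over 20 libraries; the dashed line marks equal arms. miR-21, at 151322 for 5p and 13.9 for 3p, is the point farthest to the lower right.

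The balance of the arms did not differ detectably between the groups. The log2 ratio of 3p to 5p, with 1 CPM added to each arm, was -14.51, -13.36 and -12.67 in ICH (lowest, median, highest) and -14.00, -13.24 and -12.77 in Control. The lowest value was that of ICH number 4, with 10 passenger and 269636 guide reads. The means were -13.50 ± 0.55 in ICH and -13.30 ± 0.46 in Control (SD, n = 10 each), a difference of -0.20 ± 0.22 (SE; limma over 54 hairpins, adjusted p = 0.974). The 95% interval of that difference, -0.65 to 0.25, covers a passenger arm that rose as much as the guide as well as one that did not rise. The ratio was higher in ICH in 5 of 10 pairs. With the block the adjusted p was 0.769.

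Few changes of arm ratio were detected in these libraries. Of the 54 hairpins, 0 passed without the block, where 2 had an unadjusted p under 0.05 (limma). With the block 5 had an unadjusted p under 0.05 (limma), and 1.85% passed. The hairpin that passed was miR-27a, a miRNA of myeloid cells, whose ratio of 3p to 5p was lower in ICH by 0.68 on the log2 scale (± 0.14 SE, limma with block, adjusted p = 0.00849) and lower in 10 of 10 pairs.

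Another miRNA with the seed of miR-21-5p was nearly absent. miR-590-5p, which TargetScan groups with miR-21-5p by its seed, had at most 4 reads in any library. It had 18 reads over the 10 ICH libraries and 18 over the 10 Control libraries, with 2 ICH and 3 Control libraries at 0 reads. In these 5 libraries a count of 0 allowed up to 2.199 to 3.26 CPM. Between these 2 miRNAs, nearly all reads were thus miR-21-5p at both times. The other arm of that hairpin, miR-590-3p, which has another seed, was the more abundant arm, with 34 to 113 reads in ICH and 35 to 192 in Control.

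Members of a list of inflammation-induced miRNAs, drawn up from general knowledge, moved in both directions. Of 10 tested entries in the human-reference counts, 2 rose with the block, 2 fell and 6 did not pass; without the block 0 passed. miR-9-5p rose by 0.54 ± 0.11 on the log2 scale (edgeR with block, adjusted p = 0.00139) and miR-147b, whose mouse counterpart is induced by Toll-like receptor signalling in macrophages, by 0.60 ± 0.16 (adjusted p = 0.011). The 2 entries that fell were the arms of a single hairpin, miR-132, with values of -0.58 ± 0.15 for 3p and -0.59 ± 0.21 for 5p. miR-155-5p, a marker of activated immune cells, had 0.20 ± 0.091 (adjusted p = 0.140), and miR-146a-5p, a brake on Toll-like receptor signalling, had -0.15 ± 0.10 (adjusted p = 0.327). The median of the list was -0.07, against 0.03 over all 245 miRNAs, and 19.2% of all miRNAs passed with the block. In the pig-reference counts 1 of 6 rose with the block, ssc-miR-9@, 2 fell, ssc-miR-132 and ssc-miR-181b, and 3 did not pass, beside 21.8% of all miRNAs.

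miRNAs of several cell types moved over the same interval, and their part in the miR-21 result was not tested. In such bulk samples, more cells of a type and more RNA per cell cannot be told apart. Of 11 tested entries of the myeloid list, 3 rose in either fit, namely miR-27a-5p and both arms of miR-223, beside 13.1% of all miRNAs with the block and 2.86% without it. Of 8 tested pig-reference entries, which include none of miR-223, 0 rose and 1 fell with the block, ssc-miR-142-5p. In the human-reference counts the myeloid list summed, from library totals, to 31887 to 50073 CPM in ICH (median 37989). In Control it summed to 31544 to 51113 (median 44570), and the sum was higher in ICH in 2 of 10 pairs. The largest part was miR-142-5p, of a hairpin specific to blood cells, which averaged 12976 CPM in ICH and 16700 in Control. miR-223-3p averaged 1857 CPM in ICH and 1302 in Control. In the lymphocyte list 5 of 16 fell and 2 rose with the block, beside 6.12% and 13.1% of all miRNAs, and 0 passed without it. In the pig-reference counts 6 of 10 fell and 1 rose with the block, beside 10.1% and 11.7%. The summed human-reference level was 18706 to 35388 in ICH and 23022 to 44041 in Control. miR-150-5p, abundant in mature lymphocytes, fell by 0.38 (± 0.10 SE, edgeR with block, adjusted p = 0.00898). The 2 that rose were miR-181d-5p, by 0.50 (± 0.098, adjusted p = 0.000854), and miR-181c-3p, by 0.41 (± 0.11, adjusted p = 0.0125). Their relative miR-181a-5p fell.

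In the erythroid list 2 of 6 rose with the block, miR-486-5p and miR-144-3p, beside 13.1% of all miRNAs, and 0 rose without it. In the pig-reference counts 1 of 4 rose with the block, ssc-miR-486, beside 11.7%. The summed human-reference level was 2995 to 5379 CPM in ICH and 3250 to 6732 in Control. Most of this sum was miR-363-3p, which averaged 3412 CPM in ICH and 4143 in Control. By contrast miR-451a averaged 353 CPM in ICH and 275 in Control, miR-144-3p 158 and 131, and miR-486-5p 156 and 112. miR-451a, the most abundant miRNA of red cells, stood at 0.64 ± 0.28 on the log2 scale with the block (edgeR, adjusted p = 0.140). In the platelet and endothelial list 1 of 6 rose in either fit, miR-126-3p, beside 13.1% of all miRNAs with the block and 2.86% without it. In the pig-reference counts 1 of 7 rose with the block, ssc-miR-126-3p, and 2 fell, ssc-miR-151-3p and ssc-miR-151-5p, beside 11.7% and 10.1%. The summed human-reference level was 42903 to 55495 in ICH and 42297 to 59907 in Control. Most of this sum was miR-191-5p, which is found across blood cells and averaged 43692 CPM in ICH and 46542 in Control. miR-126-3p averaged 426 CPM in ICH and 316 in Control. Of the 5 tested brain entries miR-9-5p alone rose, with the block and not without it, beside 13.1% of all miRNAs. In the pig-reference counts 1 of 3 rose with the block, ssc-miR-9@, beside 11.7%. The summed level was 6476 to 16104 in ICH and 5600 to 10409 in Control. Most of this sum was miR-128-3p, which averaged 9449 CPM in ICH and 8653 in Control. miR-124, the defining miRNA of neurons, had no reads. For miR-199a, processed like miR-21 under SMAD control in human cells, the 5p arm was too scarce to be tested. The 3p arm was counted in the human-reference table as hsa-miR-199b-3p, since both hairpins yield the same mature 3p sequence in human, and stood at 0.28 ± 0.22 on the log2 scale with the block (edgeR, adjusted p = 0.410). The pig-reference entry ssc-miR-199a-3p@ stood at 0.22 ± 0.22 on the log2 scale with the block (edgeR, adjusted p = 0.517).

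The miRNAs whose levels followed the guide arm most closely over the 20 libraries were picked by Pearson's r of log2 CPM, as a description only. For hsa-miR-21-5p these were miR-148a-3p (r = 0.76), miR-9-5p (r = 0.76), miR-147b (r = 0.71), miR-582-3p (r = 0.68) and miR-185-5p (r = 0.66), against a median of 0.04 over 228 candidates. All 5 also rose with the block, so part of each r lay in the difference between groups. With group means removed their r values were 0.65, 0.66, 0.53, 0.41 and 0.53. For ssc-miR-21 they were ssc-miR-148a-3p, ssc-miR-9@, ssc-miR-582, ssc-miR-451 and ssc-miR-7857-3p, at 0.76 to 0.65. All these values share each library's scaling factor.

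For hsa-miR-21-3p, the passenger arm, the closest were miR-362-5p (r = 0.71), miR-449a (r = 0.67), miR-9-5p (r = 0.63), miR-196b-5p (r = 0.60) and miR-425-5p (r = 0.58). miR-21-5p, which was left out of the candidates as the same hairpin, had r = 0.60 with it, which would rank 5, ahead of miR-425-5p. With group means removed that r was 0.57. miR-9-5p was thus in the nearest 5 of both arms. The few reads of the passenger arm limit every r with it.

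Across the 10 replicate numbers, a high level of miR-21 before ICH did not go with a detectably high level after it. The share of hsa-miR-21-5p in Control and in ICH had Pearson's r = 0.31 and Spearman's rho = 0.20 (n = 10 numbers; permutation p = 0.374 and 0.586), and r was -9.49e-05 without numbers 1 and 5, the farthest from the median. For hsa-miR-21-3p the values were r = 0.26 and rho = 0.12 (permutation p = 0.462 and 0.761), and r was 0.48 without numbers 1 and 8. The log2 change of the guide share and that of the passenger share had r = 0.49 and rho = 0.56 (permutation p = 0.146 and 0.0951), and r was 0.47 without numbers 5 and 8. After adjustment over the 3 relations the p values were 0.438 to 0.462 for r and 0.285 to 0.761 for rho.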

How the data were processed

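Small RNA libraries of PBMC total RNA were made with the NEBNext kit, per the labels' protocols. The authors deposited raw read counts for each human and each pig miRNA name. Per the submitters' processing notes, bcl2fastq, FastQC and Bowtie were used, with no version stated. Not given in the sources used here: how reads were counted, how many mismatches were allowed and how the authors filtered. The deposited RPM values equal the authors' filtered counts scaled to 1000000 per filtered library, within 0.0051. Columns were assigned by library name in the labels' descriptions, and groups and numbers by sample titles.

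Unfiltered counts were tested with edgeR 4.0.16 under R 4.3.3 (low counts removed by filterByExpr, TMM scaling, robust quasi-likelihood fit, Benjamini-Hochberg over all miRNAs tested, threshold 0.05). SE were derived from the fold change and F. Arm ratios used limma 3.58.1 on log2 ratios of CPM from library totals. Shares used permutation tests with 100000 resamples. Reads carry no molecular identifiers, so intervals cover counting error only. The fits were tested on simulated data.

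The primary fit had no block. Deviations from the group means correlated between the ICH and Control library of each number, at 0.146 to 0.672 in the human-reference counts, over 0.1 in all 10 pairs. In 7 of the 10 pairs each library was the other's best match. The design text describes repeated sampling, so the numbers were taken to pair the libraries. The labels do not say that different numbers are different pigs, so p-values measure the spread between these samples. The members, lists and tests were chosen with earlier results of these data known. Other miRNAs were named by rule: the seed family, the 5 most abundant, the 5 with the highest r to each member, hairpins past the arm test or nearest in imbalance, and members of the fixed lists. The seed family was taken by name. Abundant miRNAs were also grouped at 10000 CPM, a limit set after values were seen. Alternatives are given in the closing section.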

Additional observations from a re-analysis of the deposited data

Results flagged for a closer look

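Dixon's test at the 95% level was run on 16 groups of 10 libraries (levels, shares and arm ratios of the miR-21 entries, and read totals). It picked out 1 library in 1 group, where chance gives about 1 group in 20. ICH number 1 was low for ssc-miR-21, at 16.85 log2 CPM, while the remaining ICH libraries lay between 17.36 and 17.76. The gap was 0.557 of the range. The same library was lowest for hsa-miR-21-5p, at 16.91 log2 CPM against 17.30 for its nearest neighbour, where the gap of 0.424 stayed under the limit. Its human-reference total, 919313 reads, was the smallest of all libraries. Without number 1 the log2 fold change of ssc-miR-21 was 0.52 without the block (edgeR, adjusted p = 0.00615).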

How the results depend on the processing

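Every log2 fold change of the 3 miR-21 entries was positive under each alternative run, 37 for either human-reference arm and 36 for ssc-miR-21. Blocked alternatives other than the planned fit were chosen after seeing the data. Without the block, hsa-miR-21-5p missed the threshold with upper-quartile scaling (0.45), without a low-count filter (0.51) and with limma on deposited RPM (0.47); the cause was not tested. Leaving out each number gave 0.49 to 0.60 for it, 0.26 to 0.50 for hsa-miR-21-3p and 0.47 to 0.57 for ssc-miR-21, which passed without numbers 1, 4 or 5. With the block and a number left out, the ranges were 0.50 to 0.61, 0.27 to 0.52 and 0.48 to 0.58.

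ssc-miR-21 passed with the replicate block (0.52), DESeq2 (0.51), limma voom (0.52), upper-quartile scaling (0.63) and the filtered counts (0.53). Without the block it missed the threshold with library totals (0.44), DESeq2's size factors in edgeR (0.51) and scaling without miR-21 reads (0.51). It also missed without a low-count filter (0.54) and with limma on deposited RPM (0.47). With the block it also passed with library totals (0.47), DESeq2's size factors (0.54), upper-quartile factors (0.63), scaling without miR-21 reads (0.53), DESeq2 (0.54) and limma voom (0.52).

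Calls in the human-reference counts numbered 9 without the block (7 higher, 2 lower) and 47 with the replicate block (32 and 15). They were 5 with library totals (2 and 3), 5 with upper-quartile factors (1 and 4), 11 with DESeq2's size factors (6 and 5), 9 without miR-21 reads (5 and 4), 13 with DESeq2 (7 and 6), 0 with limma on deposited RPM and 0 to 11 with a number left out. With the block they were 39 with library totals (15 and 24), 47 with DESeq2's size factors, 47 with upper-quartile factors (18 and 29), 46 without miR-21 reads (26 and 20), 50 with DESeq2, 48 with limma voom and 32 to 61 with a number left out. Calls in the pig-reference counts numbered 0 without the block. They were 39 with the replicate block (21 higher, 18 lower), 11 with DESeq2, 3 with limma voom, 2 with library totals, 3 with upper-quartile factors, 2 with filtered counts and 0 to 14 with a number left out. With the block they were 36 with library totals (16 and 20), 36 with DESeq2's size factors, 44 with upper-quartile factors (35 and 9), 38 without miR-21 reads, 46 with DESeq2, 38 with limma voom and 27 to 59 with a number left out.

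The arm ratio passed under none of its 15 alternatives, with differences of -0.32 (10 CPM added) to -0.09 (without number 4). The shares passed under all 13 alternatives each. Taken outside the 10 most abundant other miRNAs, the difference was 9.09 percentage points for hsa-miR-21-5p (40.6% in ICH, 31.5% in Control) and 9.25 for ssc-miR-21, since the denominator is smaller. Leaving out a number gave differences of 4.31 to 5.38 percentage points for hsa-miR-21-5p and 4.39 to 5.49 for ssc-miR-21. The replicate block changed no other call on the members. The passenger arm rests on 4 to 37 reads per library.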
